A study of Mus musculus with 9 samples.

Results

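The 10 genes of the core circadian clock were followed in a fast muscle of the mouse leg, the tibialis anterior, with intact, removed or replaced androgen. They are Arntl (also called Bmal1), Clock, Per1, Per2, Per3, Cry1, Cry2, Nr1d1, Nr1d2 and Dbp, and they were taken by gene symbol. All 10 were listed in both deposited tables, out of 14971 protein-coding genes listed in either table. RNA sequencing of polyA RNA covered 9 libraries in 3 groups of 3. These were controls without orchiectomy, males whose testes had been removed (ORX, orchiectomy) and castrated males that then received the potent androgen dihydrotestosterone (ORX+DHT). All mice were male C57BL/6J, the labels name no introduced allele, and muscle was taken 4 weeks after treatment. The labels name the replicates as biological and say nothing of age, housing light cycle, time of day of collection, DHT dose or vehicle, and the deposited tables call the control group sham. Time of day and hormone state therefore cannot be told apart for any gene of a daily oscillator.

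The clock of mammalian cells is a feedback loop of transcription. ARNTL and CLOCK bind as a pair to E-box DNA and switch on the Period, Cryptochrome, Nr1d and Dbp genes, and PER and CRY proteins return to the nucleus and block that pair. NR1D1 and NR1D2 (REV-ERB alpha and beta) repress Arntl, and DBP carries the rhythm to output genes through D-box DNA, so in skeletal muscle, as in other tissues, transcripts of Arntl peak in antiphase to those of Nr1d1 and Dbp. Transcript levels of most of these genes thus depend on the hour at which tissue is taken.

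To place the members beside these DNA elements, the 220 bases from 250 to 31 bases before each gene start were read from RefSeq promoters (build GRCm38.p6), which held entries for 9 of the 10 genes. Searched letters, on both strands, were the E-box CACGTG and the D-box TTATGTAA or TTACGTAA. The hexamer AGGTCA, the core of sites bound by NR1D and ROR receptors, was searched too, and so was the hexamer that forms each arm of steroid receptor sites, AGAACA. The 4 windows below carry such letters, in capitals, and hold no annotated exon. They are printed 5′ to 3′ on the strand of the gene.
Cry1 (chr10:85185085-85185304, minus strand): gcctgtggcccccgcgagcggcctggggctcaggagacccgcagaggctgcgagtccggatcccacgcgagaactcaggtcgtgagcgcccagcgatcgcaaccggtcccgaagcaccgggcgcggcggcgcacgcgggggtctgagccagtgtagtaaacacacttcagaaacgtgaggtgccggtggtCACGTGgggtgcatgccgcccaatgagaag
Per1 (chr11:69098699-69098918, plus strand): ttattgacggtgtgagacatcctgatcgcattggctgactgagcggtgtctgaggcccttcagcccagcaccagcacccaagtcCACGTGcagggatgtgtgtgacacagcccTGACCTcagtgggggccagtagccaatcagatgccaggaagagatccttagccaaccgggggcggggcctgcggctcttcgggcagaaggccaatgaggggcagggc
Per3 (chr4:151044696-151044915, minus strand): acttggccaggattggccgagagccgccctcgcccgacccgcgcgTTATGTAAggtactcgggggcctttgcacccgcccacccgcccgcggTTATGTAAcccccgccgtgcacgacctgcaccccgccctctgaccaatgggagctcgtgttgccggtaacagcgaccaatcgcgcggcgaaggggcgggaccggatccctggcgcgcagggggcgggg
Nr1d2 (chr14:18239137-18239356, minus strand): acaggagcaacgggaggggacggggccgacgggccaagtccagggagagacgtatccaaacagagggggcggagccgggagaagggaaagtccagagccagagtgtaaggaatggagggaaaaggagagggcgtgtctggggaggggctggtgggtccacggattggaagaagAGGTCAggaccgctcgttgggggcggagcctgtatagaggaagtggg

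Cry1 has an E-box that starts 60 bases before the gene start. Per1 has an E-box at 166 bases and a receptor hexamer on the opposite strand at 137 bases before its upstream start, and the window lies inside the annotated gene because the GENCODE gene model begins before it. Per3 carries a D-box TTATGTAA at both 205 and 158 bases, in an intron of Camta1, which runs on the same strand. Nr1d2 has the receptor hexamer at 77 bases, and it occurs on the opposite strand before the third listed start of Clock. Among 32851 promoter windows of this length, 5.01% held the E-box, 0.831% a D-box and 12.5% the receptor hexamer. The steroid hexamer occurred in 14.4% of all windows and in none of the members', and the longer ROR response element (0.326%) and the full palindromic steroid receptor element (0.00913%) were also in none. No printed match overlaps another. These matches describe letters in short windows and carry no measure of binding.

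Reads on the listed protein-coding genes numbered between 1340209 and 1682235 per library, and reads elsewhere are not included. On principal components of 8631 genes, control replicate 1 stood apart, with a first-component score of -47.2 against 0.716 to 10.6 in the other 8 libraries, and the median gene had a within-group SD (log2) of 0.302 among controls, 0.188 among ORX and 0.185 among ORX+DHT libraries. Summed fast-fibre markers (6 of 6 genes listed) reached 180581 to 264442 normalised counts, against 82.0 to 268 for slow-fibre markers. In bulk tissue, fewer cells of a type and less RNA per cell cannot be told apart.

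Levels between genes were compared as normalised counts per kilobase of exon. In control muscle Nr1d1 was highest, at 71.99 ± 3.27 per kilobase (SD, n = 3), followed by Nr1d2 at 33.6 ± 5.98. These repressors of Arntl were separated from each other and from the rest by more than their SDs. Per1 (12.5 ± 11.99), Cry1 (8.88 ± 1.88), Dbp (6.91 ± 3.11), Arntl (5.79 ± 1.22) and Cry2 (5.72 ± 0.568) formed a middle range in which no neighbouring pair differed beyond its SDs. Clock (4.12 ± 0.298), Per3 (2.63 ± 0.736) and Per2 (1.33 ± 1.11) were lowest, and Per3 and Per2 overlapped within 1 SD. Dbp stood at 19.6 ± 10.1 per kilobase in ORX and 24.1 ± 14.1 in ORX+DHT, and Per1 at 17.997 ± 3.37 and 17.95 ± 6.59, so these 2 genes did not differ beyond their SDs in any group.

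**Figure D1:**
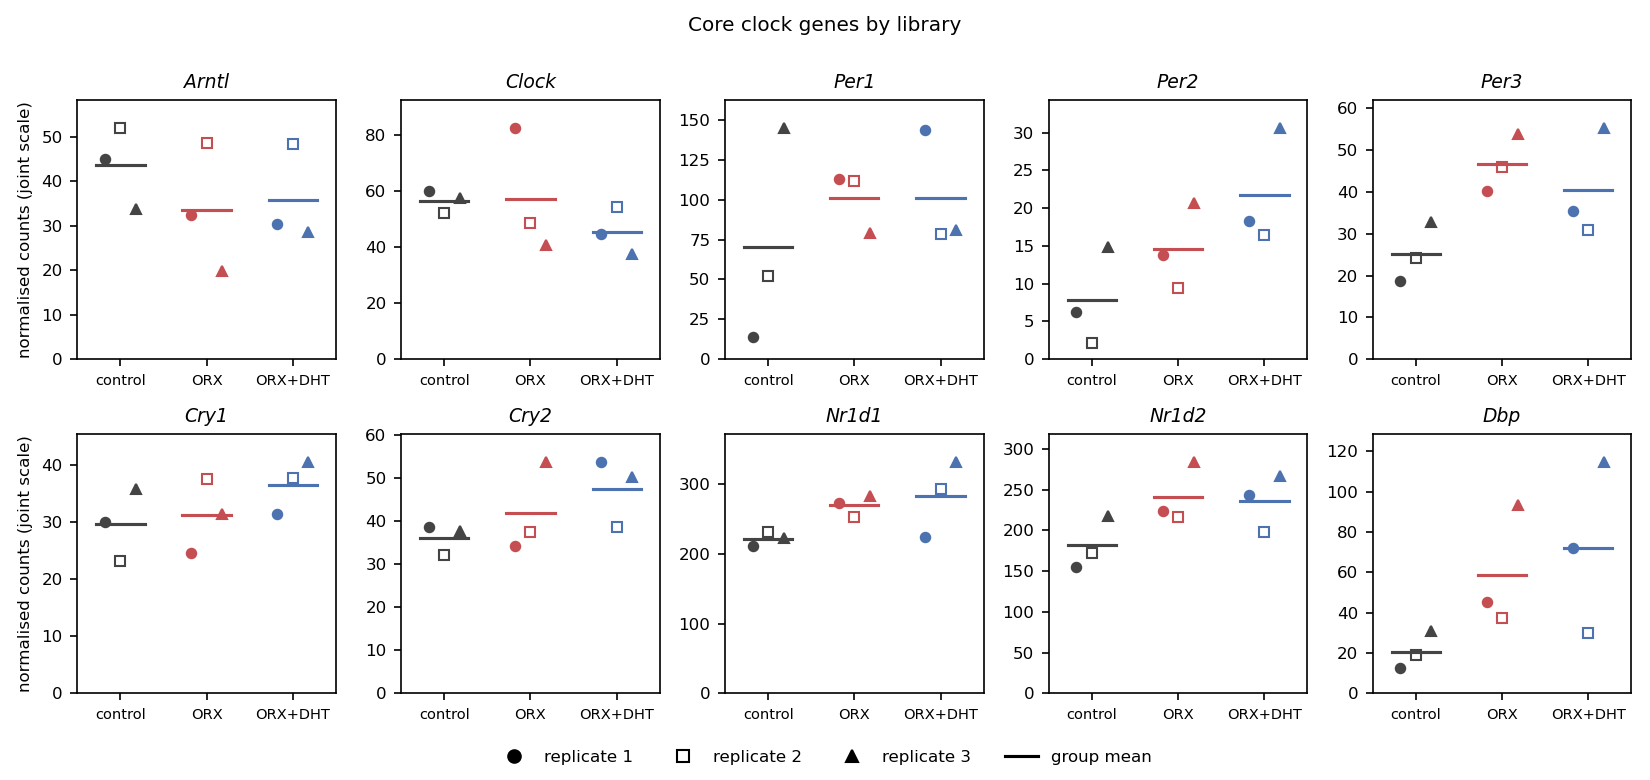
Normalised counts of each core clock gene (vertical axes, starting at 0) in the 3 libraries of the control, ORX and ORX+DHT groups. Marker shapes give the replicate number and bars the group means. For Per3, Nr1d1 and Dbp all 3 ORX libraries lie above all 3 controls, while Per1 spans 13.7 to 145 within the control group alone.

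No core clock gene passed the test in ORX against control muscle, which asks what changes when testicular androgen is removed. Dbp was 1.43 and Per3 0.88 higher in ORX on the log2(normalised count + 1) scale, and all 3 ORX libraries of both genes lay above all 3 controls. Per1 and Per2 differed by 1.06 and 1.05 with groups that overlapped. Per2 had a control mean under the minimum of 10 and entered this test through ORX, so its value is not read as a result. limma called 0 of the 10 genes at an adjusted p under 0.05, against 0.0579% of the 8631 genes tested. edgeR called 0 of the 10 (0.0695% of all genes) and DESeq2 0 (0.324%). Unadjusted p-values under 0.05 were found by limma for 3 of the 10, Dbp, Per3 and Nr1d2, and for 7.21% of all genes. The groups did not overlap for 3 of the 10, Dbp, Per3 and Nr1d1, each higher in ORX, against 14.3% of all genes in either direction and 6.28% higher. Without control replicate 1 the same 3 genes did not overlap, and 27% of all genes did not, since 2 controls are easier to clear. With Per2 included, the median fold change of the 10 genes was 0.35, beside -0.0077 over all genes, and 8 of 10 were above 0, as were 48.9% of all genes.

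Adding DHT to orchiectomised mice, the comparison that asks which transcripts respond to the androgen, moved no core clock gene past the test either. Fold changes of ORX+DHT against ORX ran from -0.28 for Clock to 0.56 for Per2, and the groups overlapped for all 10 genes. limma called 0 of 10, against 4.08% of 8770 genes, edgeR 0 (4.17%) and DESeq2 0 (2.55%), and the unadjusted p was under 0.05 for 0 of 10, against 14.3% of all genes. Non-overlapping groups were found for 19.5% of all genes. The median fold change of the members was 0.10, beside 0.0062 over all genes, and 6 of 10 were above 0, against 50.8% of all genes.

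ORX+DHT was also set against control muscle, in a comparison that shares libraries with both others. limma called 0 of 10, against 0.0349% of 8595 genes, and edgeR 0 (0.0465%). DESeq2 called 1 of 10, Dbp, at a log2 fold change of 1.79 and an adjusted p of 0.0201, against 0.151% of genes. The unadjusted p of limma was under 0.05 for Dbp and Per3, and for Per2, against 6.48% of all genes. The groups overlapped for the other 9 genes and not for Per2, where 14.0% of all genes did not overlap in either direction and 6.86% were higher. Per2 had a control mean under the minimum of 10 and entered this test through ORX+DHT, so neither its p nor its lack of overlap is read as a result. Without control replicate 1 Cry2 did not overlap either, against 26% of all genes. With Per2 included, the median fold change was 0.38, beside -0.0051 over all genes, and 8 of 10 genes were above 0, against 49.3% of all genes.

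**Figure D2:**
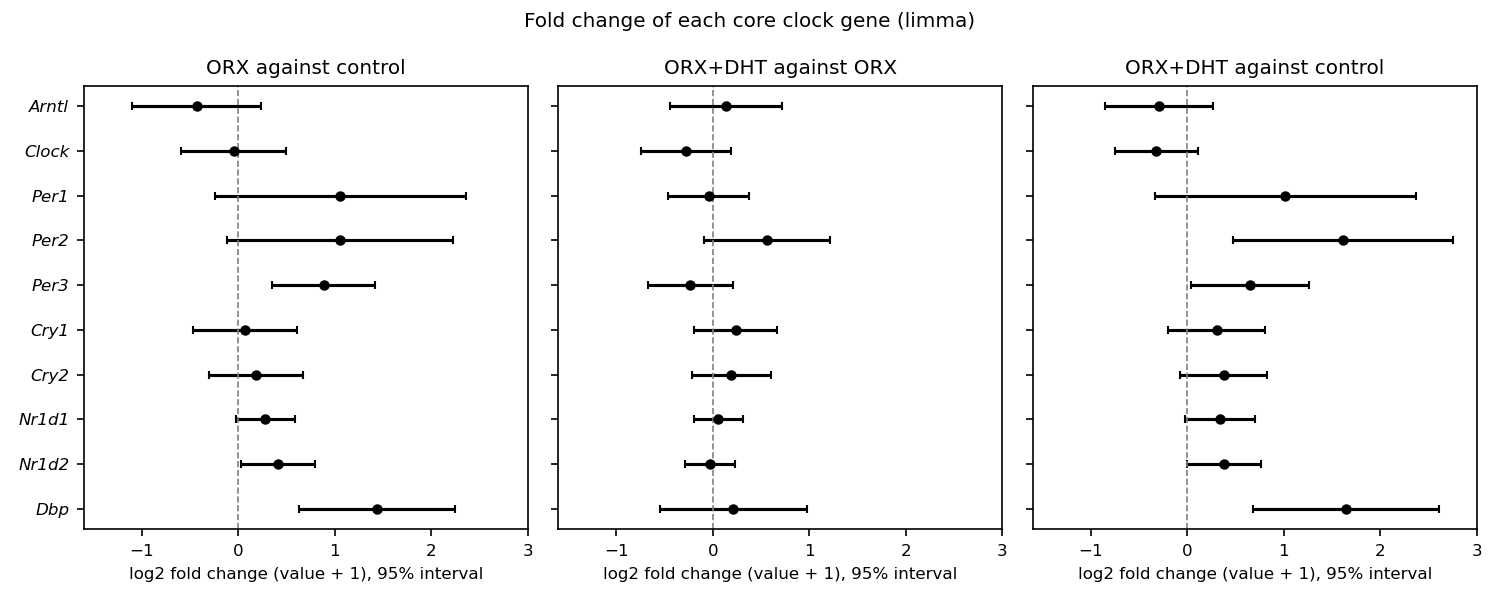
Log2 fold change of each core clock gene by limma (horizontal axis, on the log2(normalised count + 1) scale) in the 3 comparisons, with 95% intervals. In ORX against control the intervals of Dbp, Per3 and Nr1d2 lie above 0, while in ORX+DHT against ORX the intervals of all 10 genes include 0.

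Arntl and Clock form the activating arm. Arntl (ENSMUSG00000055116, chr7:113207465-113314126, plus strand, GRCm38), the partner without which the loop stops, stood at 44.9, 52.0 and 33.8 normalised counts in control replicates 1 to 3, at 32.4, 48.6 and 19.9 in ORX and at 30.4, 48.3 and 28.7 in ORX+DHT. Replicate 2 was the highest and replicate 3 the lowest in each group, and the groups overlapped. The fold change was -0.43 (SE 0.30, 95% interval -1.10 to 0.23) in ORX against control, with an adjusted p of 0.775 by limma. It was 0.14 in ORX+DHT against ORX, with an interval from -0.44 to 0.72. Without ORX replicate 3 the first value was -0.11 and the second -0.19.

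Clock (ENSMUSG00000029238, chr5:76209868-76304792, minus strand), its partner in the activator and a histone acetyltransferase, stood at 59.9, 52.0 and 57.6 in control, at 82.5, 48.6 and 40.5 in ORX and at 44.6, 54.1 and 37.5 in ORX+DHT muscle. The ORX libraries lay on both sides of the controls. Fold changes were -0.05 (SE 0.25) in ORX against control and -0.28 (SE 0.22) in ORX+DHT against ORX, with adjusted p-values of 0.977 and 0.647 by limma.

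Of the Period genes, the repressors of the negative arm, Per3 differed most evenly. Per3 (ENSMUSG00000028957, chr4:151003652-151044665, minus strand) stood at 18.7, 24.3 and 32.8 in control, at 40.2, 46.1 and 53.8 in ORX and at 35.5, 30.9 and 55.3 in ORX+DHT muscle. Every ORX library exceeded every control, and ORX+DHT replicate 2 lay between the controls. Its fold change was 0.88 (SE 0.24, interval 0.35 to 1.42) in ORX against control, with an adjusted p of 0.420 by limma that ranged from 0.204 to 0.949 over 15 alternatives. ORX+DHT against control gave 0.65 (interval 0.04 to 1.27) and ORX+DHT against ORX gave -0.23 (interval -0.67 to 0.21).

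Per1 (ENSMUSG00000020893, chr11:69095217-69109960, plus strand), a Period gene that also responds quickly to glucocorticoid and stress signals, was the least even member inside a group. Control libraries held 13.7, 52.0 and 145, ORX libraries 113, 112 and 79.4, and ORX+DHT libraries 144, 78.3 and 81.0. Controls lay at both ends of the whole range, and the lowest was control replicate 1, the library that stood apart. That library had 11 Per1 reads, for an exact Poisson 95% interval of 6.86 to 24.6 normalised counts, and control replicate 3 had 146 reads, with an interval of 122 to 171. The fold change in ORX against control was 1.06 (SE 0.60, interval -0.25 to 2.36), and it was 0.20 without control replicate 1 and 1.85 without control replicate 3. Against control, ORX+DHT stood at 1.02 (SE 0.62), and at 0.16 and 1.81 without those same libraries. ORX+DHT against ORX gave -0.04 (interval -0.46 to 0.37).

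Per2 (ENSMUSG00000055866, chr1:91415982-91459324, minus strand), a Period gene whose loss shortens the daily rhythm, rested on few reads. Control libraries held 5, 2 and 15 reads, ORX libraries 14, 11 and 25, and ORX+DHT libraries 18, 17 and 31. In normalised counts these were 6.24, 2.21 and 14.9, then 13.7, 9.38 and 20.7, then 18.2, 16.4 and 30.6. All ORX+DHT libraries were above all controls, while the ORX libraries overlapped both groups. The 2 reads of control replicate 2 allow 0.268 to 7.99 normalised counts. The control mean, 7.78 ± 6.48, was under the minimum of 10, so the gene entered the comparisons with control only through its higher groups. The fold change was 1.61 (SE 0.52, interval 0.48 to 2.75) in ORX+DHT against control, with an adjusted p of 0.736 by limma, and 1.03 without control replicate 2. ORX against control gave 1.05 (interval -0.12 to 2.22), and 0.48 without that library and 1.63 without control replicate 3. DHT added to ORX gave 0.56 (interval -0.10 to 1.22).

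The Cryptochromes, which complete the repressor complex with PER proteins, varied little. Cry1 (ENSMUSG00000020038, chr10:85131700-85185064, minus strand) stood at 29.97, 23.2 and 35.8 in control, 24.5, 37.5 and 31.4 in ORX and 31.4, 37.7 and 40.5 in ORX+DHT muscle. Cry2 (ENSMUSG00000068742, chr2:92403646-92434043, minus strand) stood at 38.7, 32.1 and 37.7, then 34.4, 37.5 and 53.8, then 53.7, 38.7 and 50.4. The groups of both genes overlapped, although the lowest Cry2 library of ORX+DHT stood close to the highest control. Cry1 differed by 0.07 (interval -0.47 to 0.61) and Cry2 by 0.18 (interval -0.31 to 0.67) in ORX against control, and by 0.31 and 0.38 in ORX+DHT against control.

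Nr1d1 (ENSMUSG00000020889, chr11:98767932-98775333, minus strand) is the haem-binding repressor of Arntl that also supports oxidative capacity in muscle. It had the lowest pooled within-group SD of the members, 0.18 on the log2 scale, though not the lowest relative to counting error. Controls stood at 211, 231 and 222, ORX libraries at 274, 252 and 283 and ORX+DHT libraries at 225, 294 and 332. All ORX libraries exceeded the controls, and ORX+DHT replicate 1 lay within the control range. The fold change was 0.28 (SE 0.14, interval -0.02 to 0.58) in ORX against control, with an adjusted p of 0.695 by limma, 0.34 (interval -0.02 to 0.70) in ORX+DHT against control and 0.06 (interval -0.20 to 0.31) in ORX+DHT against ORX. Nr1d2 (ENSMUSG00000021775, chr14:18204054-18239127, minus strand), its paralogue, stood at 155, 172 and 218 in control, 224, 216 and 284 in ORX and 243, 198 and 267 in ORX+DHT muscle. Only control replicate 3 reached into the ORX range. Its fold changes were 0.41 (SE 0.18, interval 0.03 to 0.79), 0.38 (SE 0.17) against control in ORX+DHT and -0.03 (interval -0.29 to 0.23) in ORX+DHT against ORX.

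Dbp (ENSMUSG00000059824, chr7:45705088-45710203, plus strand), a PAR-domain activator and a direct E-box output of the loop, had the highest fold change of the 10 genes in ORX against control, at each of the 3 pseudocounts tried, although without control replicate 3 Per1 stood above it (1.85 against 1.75). Controls held 12.5, 18.8 and 30.8, ORX libraries 45.2, 37.5 and 93.5, and ORX+DHT libraries 71.9, 29.97 and 115. Every ORX library lay above every control, whereas ORX+DHT replicate 2 lay just under control replicate 3. Means were 20.7 ± 9.30 for control, 58.7 ± 30.3 for ORX and 72.2 ± 42.3 for ORX+DHT (SD, n = 3). The fold change in ORX against control was 1.43 (SE 0.37, interval 0.62 to 2.25), with an unadjusted p of 0.0024 and an adjusted p of 0.349 by limma. Over 15 alternatives it ran from 1.05 to 1.75, with adjusted p-values between 0.0579 and 0.936, and without control replicate 1 it was 1.14. ORX+DHT against control gave 1.65 (SE 0.44, interval 0.69 to 2.61), with an adjusted p of 0.602 by limma, close to the 1.61 of Per2, which stood above Dbp with a pseudocount of 0.1 (1.802 against 1.69). ORX+DHT against ORX gave 0.21 (interval -0.55 to 0.97), and this value was -0.21 without ORX+DHT replicate 3 and 0.74 without ORX+DHT replicate 2.

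Some members share sequence with a neighbour, and no source used here states whether counting used the strand. Thra, the gene of thyroid hormone receptor alpha, runs opposite to Nr1d1 and shares 263 exon bases, 8.55% of the exon bases of Nr1d1. It stood at 151, 154 and 141 in control, 153, 185 and 155 in ORX and 126, 126 and 116 in ORX+DHT. Thra fell by 0.42 in ORX+DHT against ORX (SE 0.11, adjusted p = 0.0475 by limma), with no overlap between the groups, and the call was lost in 8 of 16 alternatives. Nr1d1 stood at 0.06 in that comparison. Sphk2, a sphingosine kinase gene opposite to Dbp, shares 539 bases or 18.01% of the exon bases of Dbp, and it differed by -0.04, 0.08 and 0.04 in the 3 comparisons. Smaller overlaps joined Cry2 to D930015M05Rik (295 bases) and Arntl to Gm45355 (33 bases).

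Members differed widely in how much mice of the same group varied. Per1 had a pooled within-group SD of 1.01 on the log2 scale, Per2 of 0.78 and Dbp of 0.77, placing them at percentiles 99.8, 99.1 and 99.1 among 8631 genes, whose median was 0.27. Counting error alone, taken at the mean reads of all 9 libraries, gave 0.15 for Per1, 0.37 for Per2 and 0.20 for Dbp. It is understated for libraries with few reads, such as the lowest controls of Per1 and Per2. The observed spread was 6.82 times this counting error for Per1 and 3.90 times for Dbp, where the median gene had 1.24. The spread of Per1 came mostly from the controls, whose highest library was 10.6 times the lowest, against 1.42 times in ORX and 1.84 times in ORX+DHT. Without control replicate 1 the SD of Per1 was 0.58 (percentile 97.6, 4.15 times counting error), while Per2 stood at 0.85 and Dbp at 0.78. Arntl varied by 0.47 (percentile 89.3), 1.98 times its counting error. Cry1 (0.27) and Cry2 (0.25) varied by 1.07 and 1.15 times theirs, so at this depth differences between mice of a group were hardly detectable for these genes. Nr1d1, at 0.18, was less variable than most genes (percentile 20.9) and still 1.99 times its counting error.

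**Figure D3:**
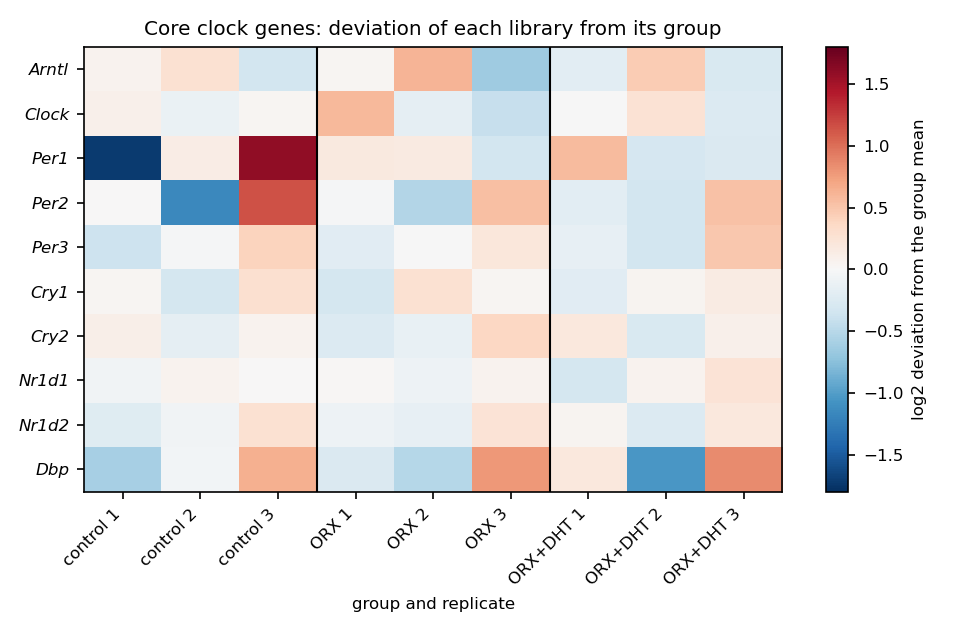
Log2 deviation of each library from the mean of its own group (colour scale) for the 10 core clock genes, with the 9 libraries in columns. The control columns hold the extremes, with Per1 at -1.72 in replicate 1 and 1.59 in replicate 3, and in each group's replicate 3 Dbp and Per2 are above and Arntl is below the group mean.

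The order of the replicates was read across genes after the values were seen. Dbp, Per2, Per3 and Nr1d2 were each highest in replicate 3 of all 3 groups, 4 of 10 genes, against 3.33% of 8631 genes, and Arntl was lowest in replicate 3 of all 3 groups, against 2.55%. Arntl was also highest in replicate 2 of all 3 groups, as were 3.59% of genes. Each of these shares is for 1 replicate number, picked from the same values, so an excess over them is not read as a result. The labels do not say what a shared replicate number stands for, and its part in these values was not tested. Within a library, log2 Dbp minus log2 Arntl was -1.77, -1.42 and -0.13 in control, 0.47, -0.36 and 2.18 in ORX, and 1.22, -0.67 and 1.96 in ORX+DHT. The control values were all negative and the other groups ranged from negative to positive, with control replicate 3 above replicate 2 of both other groups.

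The activator gene Arntl and the output gene Dbp were compared over the 9 libraries, as 1 of 3 pairs. The tests use the same values as the differences just given and are no separate evidence for them. Pearson's r was -0.80 (exact permutation p = 0.0107, adjusted over the 3 pairs 0.0322) and Spearman's rho was -0.82 (exact permutation p = 0.0108, adjusted 0.0323). Without control replicate 2 and ORX replicate 3, the 2 libraries farthest from the median of Arntl, r was -0.72, and it ran from -0.84 to -0.76 with each library left out in turn. With group means removed, r was -0.86 (exact permutation within groups, p = 0.0139, adjusted 0.0417), at least as large as over all libraries. Both values of a library share its depth and scaling factor. For Nr1d1 and Dbp r was 0.66 (exact permutation p = 0.0541, adjusted 0.0812; rho 0.58, exact permutation p = 0.108, adjusted 0.162), and it was 0.25 without control replicate 1 and ORX+DHT replicate 3 and 0.27 within groups (exact permutation p = 0.736, adjusted 0.810). For Arntl and Nr1d1 it was -0.36 (exact permutation p = 0.347, adjusted 0.347; rho -0.32, exact permutation p = 0.410), -0.18 without control replicate 2 and ORX replicate 3, and -0.13 within groups (exact permutation p = 0.810).

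**Figure D4:**
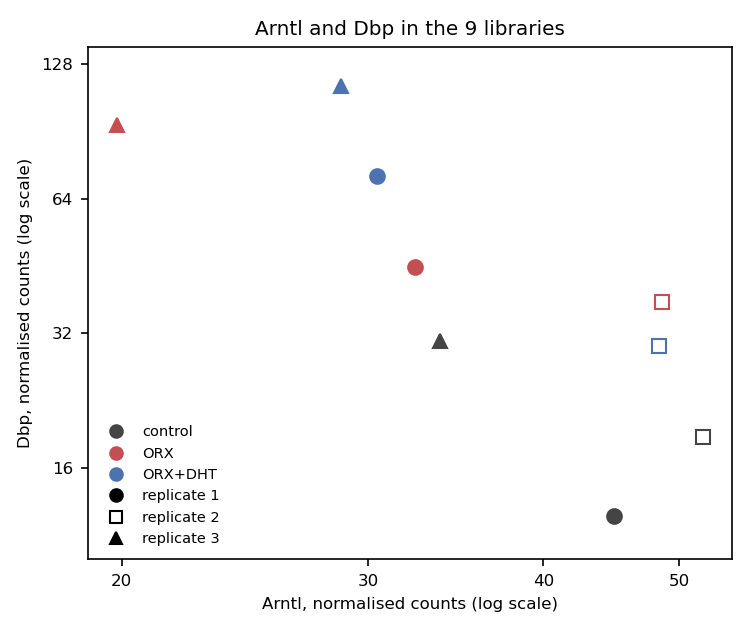
Normalised counts of Arntl (horizontal, log axis) and Dbp (vertical, log axis) in the 9 libraries, coloured by group and shaped by replicate number. Libraries with less Arntl tend to hold more Dbp, with exceptions. The lowest Arntl is in ORX replicate 3 (19.9, with Dbp at 93.5) and the highest in control replicate 2 (52.0, with Dbp at 18.8). Control replicate 3 (33.8 and 30.8) holds less of both genes than ORX replicate 2 (48.6 and 37.5).

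Beyond the core, 28 genes that modify the loop were followed, of which 27 were in both tables (Fbxl21 was not) and 23 had enough signal to test. Npas2, Arntl2, Rorb and Ciart were too low. limma called 0 of 23 after orchiectomy, 2 with DHT added, both higher, and 0 in ORX+DHT against control. Over all genes these shares were 0.0579%, 4.08% and 0.0349%, and the list was chosen with earlier results of these data known. Unadjusted p-values were under 0.05 for 3, 3 and 2 of the 23 in this order, against 7.21%, 14.3% and 6.48% of all genes. edgeR called 0, 2 and 0 (0.0695%, 4.17% and 0.0465% of all genes), and DESeq2 called 1, 1 and 0 (0.324%, 2.55% and 0.151%). Bhlhe41 (DEC2), a repressor that competes for the E-box with ARNTL and CLOCK, held 149, 112 and 95.3 in control, 57.9, 48.6 and 56.2 in ORX and 120, 103 and 121 in ORX+DHT muscle. The ORX libraries lay below all libraries of both other groups. Bhlhe41 rose by 1.07 in ORX+DHT against ORX (SE 0.14, interval 0.78 to 1.35, adjusted p = 6.33e-05 by limma) and was called in 16 of 16 alternatives, with adjusted p-values up to 0.00458. In ORX against control it was -1.09 (SE 0.20, adjusted p = 0.0923 by limma), and 5 of 16 alternatives called it, with adjusted p-values from 0.00977 to 0.674. ORX+DHT differed from control by -0.03 (interval -0.44 to 0.38). Summed levels of 5 fibroblast markers also separated ORX (3375 to 4351) from ORX+DHT (1644 to 2302), with control between 1442 and 2878. Col1a1 and Col1a2 made up most of this sum. In ORX+DHT against ORX, limma called 3 of the 5, all lower (Col1a1, Col1a2 and Lum), against 4.08% of all genes. edgeR called 3 (4.17% of all genes) and DESeq2 3 (2.55%). Dcn (-0.05) and Pdgfra (0.06) were not called there. Summed endothelium markers, lower in ORX, and summed slow-fibre markers, higher in ORX, separated the same groups too. Myl3 made up most of the slow-fibre sum, and only 2 of those 6 markers had enough signal to test. The part of any of these markers in the Bhlhe41 result was not tested.

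Nampt, the rate-limiting enzyme of NAD salvage and a clock output, held 300, 293 and 319 in control, 272, 248 and 247 in ORX and 354, 290 and 353 in ORX+DHT. It rose by 0.37 in ORX+DHT against ORX (SE 0.10, adjusted p = 0.0456 by limma), and 9 of 16 alternatives lost the call, with adjusted p-values up to 0.258. Tef, a PAR-domain relative of Dbp, held 341, 321 and 395, then 397, 404 and 454, then 435, 330 and 472, and its fold change in ORX against control was 0.25 (SE 0.14, adjusted p = 0.737 by limma). Prkaa2, Usp2 and Csnk2a1, an AMPK subunit, a deubiquitinase and a casein kinase subunit, were the other abundant genes of the list, with means over all libraries of 463, 356 and 186, and none was called. Nfil3 and Bhlhe40 were added after their values were seen. Nfil3, which represses D-box genes where DBP activates them, held 91.1, 52.0 and 63.6 in control, 31.4, 54.6 and 44.7 in ORX and 36.5, 63.8 and 33.6 in ORX+DHT, with a fold change of -0.65 (SE 0.26, adjusted p = 0.675 by limma) in ORX against control. Bhlhe40 (DEC1), the paralogue of Bhlhe41, held 89.9, 201 and 149, then 214, 202 and 251, then 169, 133 and 240. It stood at 0.67 (SE 0.25, adjusted p = 0.669 by limma) in ORX against control, on the other side of 0 from Bhlhe41.

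**Figure D5:**
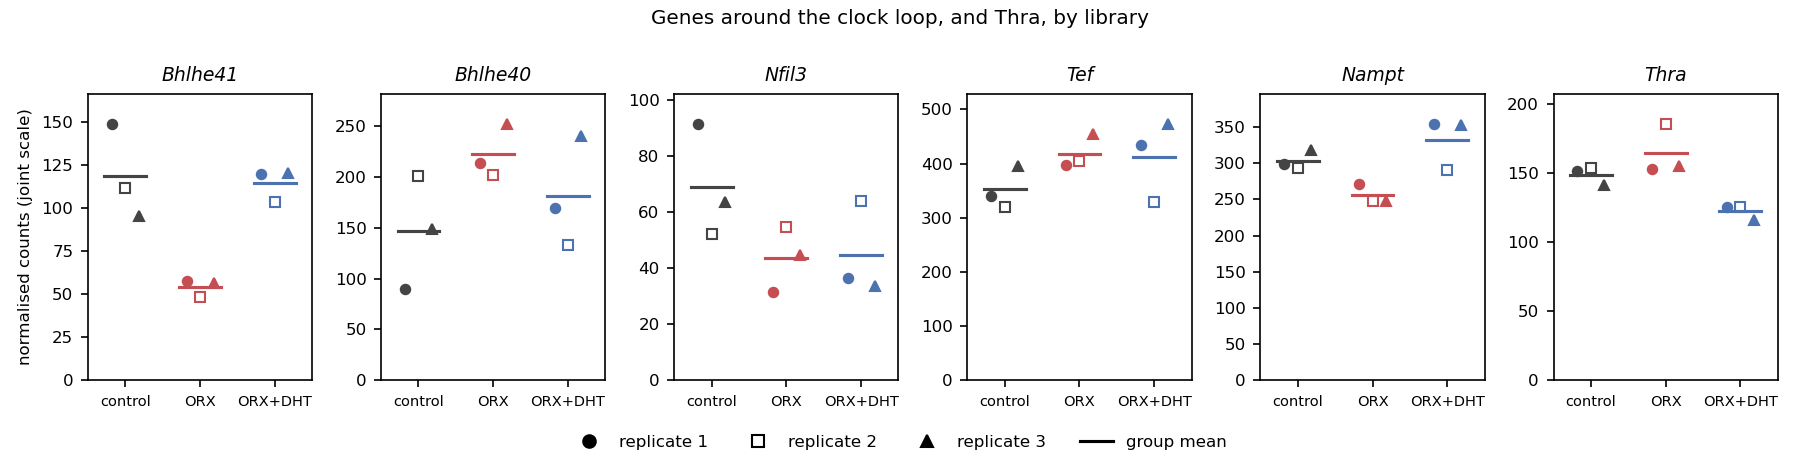
Normalised counts (vertical axes, starting at 0) of 5 genes around the clock loop and of Thra in the 9 libraries, with group means as bars. Bhlhe41 in ORX, at 48.6 to 57.9, lies below control (95.3 to 149) and ORX+DHT (103 to 121), whereas Bhlhe40, Nfil3 and Tef overlap between ORX and ORX+DHT.

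A list of 18 genes chosen as muscle clock outputs, 16 of them tested, was read in the same fits. With DHT added to ORX limma called 5 of the 16, against 4.08% of all genes. edgeR called 5 (4.17% of all genes) and DESeq2 2 (2.55%). The list was chosen with earlier results of these data known, so an excess over these shares is not read as a result. Hk2, the hexokinase of insulin-responsive muscle, rose by 0.76 (709 ± 70.8 to 1201 ± 67.9 normalised counts, SD, n = 3), Ppargc1a, the coactivator of mitochondrial biogenesis, by 0.60 (68.8 ± 8.81 to 104 ± 4.69), and Slc2a4, the GLUT4 transporter, by 0.33 (888 ± 49.9 to 1118 ± 57.7), with adjusted p-values of 1.95e-05, 0.013 and 0.0204 by limma. Mylk4 rose by 1.08, and Pfkfb3, which makes the activator of glycolytic flux, fell by 0.91 (693 ± 130 to 376 ± 117). In ORX against control limma called 1 of the 16, Pfkfb3, which was 1.502 higher (0.0579% of all genes were called there). There edgeR called 1 (0.0695% of all genes) and DESeq2 1 (0.324%). In the comparison of ORX+DHT with control limma called 0 of 16 (0.0349% of all genes), edgeR 0 (0.0465%) and DESeq2 0 (0.151%). By limma 4 of the 16 had an unadjusted p under 0.05 in that comparison, against 6.48% of all genes. The difference between this list and the core loop was not tested.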

How the data were processed

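The deposited values are a signal: read counts that the authors divided by a scaling factor for each library (normalised counts). They come in 2 tables: one pairs control with ORX and the other ORX with ORX+DHT. Per the submitters' processing notes, the tools were Trim Galore 0.6.7, HISAT2 2.2.1, featureCounts 2.0.1 and DESeq2 1.36.0 on GRCm38; the strand setting of counting is not given in the sources used here. The library kit was directional and selected polyA RNA, per the labels' protocols. Columns called sham were taken as control and matched by replicate number, and 0 columns were unmapped.

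In every column 100% of values were whole multiples of 1 step within 0.001 read, so reads were recovered by division. For control replicate 3 the step, 0.992, was close to 1. Printed levels come from the 14300 genes in both tables, rescaled together over 9 libraries by median-of-ratios factors. Poisson intervals show counting error alone, because PCR copies cannot be told from separate molecules here. The fits used limma 3.58.1 (R 4.3.3, trended eBayes) on log2(normalised count + 1), for genes with a mean of at least 10. The first 2 comparisons were fitted within their own table, and ORX+DHT against control on the joint scale. p-values were adjusted by Benjamini-Hochberg over all genes tested and called under 0.05. This scale understates the change of low genes, and p-values measure only the spread between the libraries. edgeR 4.0.16 (quasi-likelihood) and DESeq2 1.42.0 were run on the recovered reads as alternatives, beside other pseudocounts, filters, scalings, a fit of all 9 libraries, the replicate number as a block and each library left out. The main limma fit, edgeR and DESeq2 were tested on simulated data, and the other alternatives were not. The simulation gave all genes the same dispersion and set no library apart, unlike these data. Gene positions and exon lengths are from GENCODE release M21, on the submitters' build.

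The members and lists were chosen with earlier results of these data known. Named by rule were all 10 members, the called genes of the lists and of the neighbours Thra and Sphk2, up to 4 further abundant genes of the auxiliary list, and the 4 genes with a mean of at least 50 most like Arntl, Dbp and Per1.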

Additional observations from a re-analysis of the deposited data

How the results depend on the processing

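The alternatives called 0 of the core clock genes they tested in each comparison, except that DESeq2 called 1, Dbp, in ORX+DHT against control; the cause was not tested for this or the values that follow. All genes called in ORX against control numbered 5, and 16 with no filter, 23 with all 9 libraries in 1 fit, 28 by DESeq2 and 1 to 51 with a library left out (51 without control replicate 1, 21 without control replicate 3). In ORX+DHT against ORX they numbered 358, and 124 with all 9 libraries, 224 by DESeq2 and 223 to 350 with a library left out. In ORX+DHT against control they numbered 3, and 6 with quantile normalisation, 11 with all 9 libraries, 13 by DESeq2 and 0 to 66 with a library left out (66 without control replicate 1). With the replicate number as a block, 571 genes were called in ORX+DHT against ORX and 0 core clock genes in each comparison, with Dbp at an adjusted p of 0.120 by limma in ORX against control. Deviations of same-numbered libraries correlated between -0.165 and 0.151 over genes, so the numbers were not taken to pair the mice, although in ORX+DHT and ORX each library correlated best with its own number.

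Direction reversed for small fold changes, with a library left out unless stated. In ORX against control these were Clock (-0.34 to 0.16, and 0.020 by edgeR and by DESeq2), Cry1 (-0.089 to 0.23) and Cry2 (-0.0066 to 0.31). With DHT added to ORX they were Arntl (-0.19 to 0.44), Clock (-0.49 to 0.017), Per1 (-0.33 to 0.11), Nr1d1 (-0.066 to 0.21), Nr1d2 (-0.12 to 0.091) and Dbp (-0.21 to 0.74). In ORX+DHT against control Bhlhe41 ran from -0.17 to 0.15, and was 0.013 with quantile normalisation. The correlation of Nr1d1 with Dbp ran from 0.49 to 0.84 with a library left out. A minimum mean of 50 tested 4, 5 and 4 of the 10 members in the 3 comparisons, and without ORX replicate 3 ORX against control tested 9. Counts of non-overlapping groups and within-group SDs without control replicate 1, and the orders of replicates within groups, were added after the data were seen.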

Other observations

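The genes with a mean of at least 50 normalised counts whose log2 levels ran most like a member over the 9 libraries were picked as the top 4 of 3790 candidates, so their correlations are descriptions of the choice and share each library's depth and scaling. For Dbp they were Polr2b (r = 0.97), Mars1 (0.95), Eef2 (0.93) and Ptp4a3 (0.93), and without control replicate 1 they had 0.95, 0.93, 0.96 and 0.91. For Arntl they were Tlcd4 (0.89), Itgb6 (0.86), Dyrk2 (0.83) and Srpk3 (0.82), with 0.93, 0.89, 0.87 and 0.81 without that library. For Per1 they were Arnt (0.96), Shank3 (0.95), Map3k10 (0.94) and Mta2 (0.94), and these had 0.78, 0.80, 0.83 and 0.73 without it. Arnt, which encodes a relative of ARNTL that partners other bHLH-PAS proteins, held 57.4, 82.9 and 100.3 normalised counts in control, 93.3, 93.0 and 87.7 in ORX and 97.3, 87.0 and 99.8 in ORX+DHT muscle.

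A list of 20 glucocorticoid and steroid response genes, 18 of them tested, was read beside Per1, which responds to glucocorticoid. limma called 0 of them in ORX against control, against 0.0579% of all genes, and 5 had an unadjusted p under 0.05, against 7.21%. edgeR called 0 (0.0695% of all genes) and DESeq2 1 (0.324%). With DHT added to ORX, limma called 4 of 18, against 4.08% of all genes. There edgeR called 4 (4.17% of all genes) and DESeq2 2 (2.55%). This list too was chosen with earlier results known, so an excess over these shares is not read as a result. Fkbp5, a steroid receptor chaperone, rose by 1.804 (30.9 ± 10.2 to 107 ± 4.19 normalised counts, SD, n = 3) and Zbtb16, a zinc finger repressor, by 1.11 (106 ± 2.46 to 231 ± 41.7). Tsc22d3, known as GILZ, fell by 0.36 (377 ± 15.9 to 294 ± 13.6) and Nr3c1, the glucocorticoid receptor gene, fell by 0.43 (181 ± 8.81 to 135 ± 15.6). Per1 stood at -0.04 in the same comparison.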
